A study of Mus musculus with 29 samples.

Results

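Wnt ligands, their receptors, their secreted antagonists and the factors that carry their signal were followed through RNA-seq of mouse bladder. Members were taken by symbol alone, as genes named Wnt, Fzd, Sfrp, Dkk1 to Dkk4, Rspo1 to Rspo4, Lgr4 to Lgr6, Axin1 or Axin2, Tcf7 or Tcf7-like, or Lef1. The rule took 50 of the 35199 genes in each table. They are 19 Wnt ligands, 10 frizzled receptors, 4 R-spondins, 3 R-spondin receptors of the Lgr group and 4 secreted frizzled-related antagonists. The rest are 4 Dickkopf genes, 2 Axin scaffolds and 4 TCF/LEF transcription factors.

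Wnt proteins are lipid-modified ligands that bind frizzled receptors together with an Lrp co-receptor. In the canonical branch this stops the Axin-containing destruction complex from degrading beta-catenin, which then works with TCF/LEF factors on genes such as Axin2, itself a common readout of the pathway. R-spondins act through Lgr receptors to keep frizzleds on the cell surface, and Sfrp proteins bind Wnt ligands outside the cell. Some Dickkopf proteins, such as Dkk1, block the co-receptor. Families here follow symbols, so Dickkopf genes, Dkk3 among them, are grouped with the antagonists by name alone. In bladder, Wnt ligands pass between the urothelium and the stroma beneath it.

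The mutants carried a tamoxifen-inducible Krt5 Cre, which acts in basal cells, and a VP16;Pparg cassette in the Rosa26 locus that Cre switches on. VP16;Pparg is a Pparg fused to a viral activator, so that it works without ligand. The sorted cells were Gfp-positive urothelial cells of adult, untreated mice, taken 4 days after induction, and comprised 4 control libraries and 5 libraries of K5VP16;Pparg mutants (genotype K5VP16;Pparg+/- in the labels). The labels call the sorted controls wild type. The study describes them as carrying the Krt5 Cre with a membrane reporter, and elsewhere names VP16;Pparg fl/fl controls for this comparison. Which genotype each control library had cannot be told from the labels. By the study's methods the Gfp-positive cells were sorted from controls with the Krt5 Cre and the reporter, in which case both groups shared Cre. The tumor libraries were laser-captured from bladders of mice given the carcinogen BBN at 0.05% in the drinking water, labelled 5 months of BBN and 4 months in the titles, the latter counted from a tamoxifen induction given after 1 month of BBN. They comprised 3 basal tumors labelled wild type, for which the study names VP16;Pparg fl/fl controls in some places and K5;mTmG controls in others, and from K5VP16;Pparg+/- mice 3 luminal tumors, 3 luminal domains (the top of mixed lesions) and 3 basal-like domains (the bottom of mixed lesions). The labels do not tie captured regions to animals, so p-values measure the spread between these libraries, which may in part be technical. They are too small if regions of the same group share an animal. Where regions of both compared groups share an animal, as the top and bottom of a lesion would, unpaired p-values can be too large.

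Values are normalized counts, which were set for each table on its own, and libraries are numbered here in the column order of their table. Summed over all genes they came to 36520200 to 41435700 per library in the sorted cells and 41697200 to 53904700 in the tumor tables. The study gives a target depth in reads, but the depth that each library reached is unknown. Differences were tested with limma on log2(normalized count + 1), with Benjamini-Hochberg adjustment over all genes with at least 10 normalized counts in enough libraries, and a gene was called at an adjusted p under 0.05. Fold changes on this scale understate the change of low genes. Fabp4, a Pparg target, checked the sorted groups and was higher in mutants by a log2 fold change of 4.64 (SE 0.49, adjusted p = 0.00171), with 207 to 467 normalized counts in controls and 4969 to 30598 in mutants. Pparg itself was at 9381 to 9999 in the sorted controls and 6111 to 9032 in the mutants, with a log2 fold change of -0.36 (SE 0.12, adjusted p = 0.126). The defining basal marker Krt5 ran from 62918 to 109572 in all sorted libraries. In the table that holds them with the luminal tumors, the basal tumors held 13.0 to 126 normalized counts of Pparg and the luminal tumors 3579 to 8632, while superficial cell markers summed to 743 to 8759 and to 91923 to 607503. Fabp4 did not separate these groups, at 75.5 to 48303 in the basal tumors, with library 3 the highest, and 31727 to 310097 in the luminal tumors (adjusted p = 0.172).

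The sorted groups differed in more than genotype. The summed level of 4 Y-linked genes was 9030 to 9177 normalized counts in control libraries 2 to 4, but 404 in control library 1 and 338 to 395 in the 5 mutants, so sex and genotype can be told apart only through control library 1. The summed level of 8 fibroblast markers was 11682, 25065, 42220 and 84731 in the controls and 84596, 30698, 217938, 129231 and 66887 in the mutants and all 8 markers had a positive log2 fold change, of which 1, Lum, was called. All 6 smooth muscle markers were positive too, with a median of 1.75 and no call, and summed to 174 to 1042 in the controls and 410 to 2719 in the mutants. Markers of basal cells summed to 320676 to 372456 in the controls and 175010 to 282038 in the mutants, without overlap, and Col17a1 was called lower. Basal markers were thus present in all libraries. All 6 superficial cell markers were positive, with Krt20 called higher, and summed to 152447 to 327560 and 205147 to 350478. The part of the smooth muscle, basal and superficial markers in the differences below was not tested. Postn, a matrix protein of activated fibroblasts, was at 0 in at least 1 library.

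The first comparison asks whether 4 days of Pparg activity in basal cells moved the Wnt genes. Lgr4, a receptor for R-spondins, fell and the frizzled receptor Fzd7 rose, and no other member was called. Of the 50 members 35 had enough normalized counts to be tested and 2 were called, against 2.85% of the 16413 genes tested, and the 2 of 35 are too few to set apart from that share. At an unadjusted p under 0.05, 7 of the 35 passed, against 20.8% of all genes tested. The median log2 fold change was -0.0037 over the tested members and 0.0045 over all genes tested, with 16 members positive and 19 negative.

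Lgr4, a receptor through which R-spondins raise the level of frizzleds, was at 2780, 2981, 3572 and 3389 normalized counts in the 4 controls and at 1950, 2238, 1950, 2454 and 2447 in the 5 mutants. Every mutant library lay below every control. The log2 fold change was -0.53 (SE 0.11, adjusted p = 0.0402 by limma), or 0.694 times the control level, and the exact two-sided permutation p was 0.00794, the smallest that 4 against 5 libraries allow.

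Fzd7, a frizzled receptor of canonical and other Wnt signals, was at 1257, 1032, 1084 and 1423 normalized counts in the controls and at 2682, 2283, 2221, 1496 and 1828 in the mutants. The groups did not overlap, though mutant library 4 lay close to the highest control. The log2 fold change was 0.79 (SE 0.17, adjusted p = 0.0422 by limma), or 1.73 times the control level, with an exact permutation p of 0.0159.

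Neither call was firm. Leaving out control library 2, 3 or 4 or mutant library 1, 2 or 3 took the adjusted p of Lgr4 to between 0.0518 and 0.128, and leaving out any library but mutant library 4 took that of Fzd7 to between 0.0554 and 0.128. Both calls were also lost with no filter (0.0539 for Lgr4 and 0.0504 for Fzd7), without the trend (0.0754 and 0.0728) and in the table of 3 against 3 libraries (0.101 and 0.0786). With the Y-linked level as a covariate, log2 fold changes were -0.36 for Lgr4 (adjusted p = 0.611) and 0.75 for Fzd7 (adjusted p = 0.479), and with the fibroblast level as a covariate they were -0.50 (adjusted p = 0.299) and 0.68 (adjusted p = 0.326).

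The DNA just before the start is shown for both members called in the sorted cells, though neither call was firm. Each run is the 250 bases before the start in RefSeq's GRCm38.p6 on the plus strand, in lower case. Capitals would mark CTTTGAT, a TCF/LEF core, or the DR1 repeat that Pparg binds with its partner, a pair of AGGTCA 1 base apart, searched on both strands, and neither was found in these windows.
Lgr4, chr2:109917397-109917646: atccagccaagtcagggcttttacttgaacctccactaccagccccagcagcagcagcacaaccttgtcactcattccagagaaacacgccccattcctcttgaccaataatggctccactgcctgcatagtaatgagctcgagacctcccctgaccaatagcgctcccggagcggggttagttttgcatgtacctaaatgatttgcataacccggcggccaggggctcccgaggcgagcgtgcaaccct
Fzd7, chr1:59481897-59482146: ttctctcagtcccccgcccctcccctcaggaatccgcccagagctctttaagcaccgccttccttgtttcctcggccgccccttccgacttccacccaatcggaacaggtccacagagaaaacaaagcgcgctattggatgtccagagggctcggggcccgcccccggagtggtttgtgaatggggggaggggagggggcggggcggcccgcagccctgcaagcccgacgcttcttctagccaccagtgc
Both are rich in G and C, at 55.6% for Lgr4 and 65.2% for Fzd7. Lgr4 itself spans chr2:109917647-110014257 and Fzd7 chr1:59482147-59486955. A promoter of 250 bases before to 50 after a start was given for 34 of the 50 members, in 42 windows. CTTTGAT was in 2 of the 42, at Wnt11 and Wnt5b, or 4.76%, against 3.73% of 32851 windows of all genes, and the DR1 repeat was in none, against 0.0396% of all. These matches describe letters and not bound sites, and the absence of an exact repeat this rare says little.

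Among the ligands, Wnt5a, which often signals without beta-catenin, came nearest to a call. It was at 22473, 23683, 22837 and 24481 normalized counts in the controls and at 10131, 15767, 16126, 14890 and 19534 in the mutants. The 4 controls lay close together and the mutants lay lower and wider, without overlap. The log2 fold change was -0.64 (SE 0.16, adjusted p = 0.0681), and it passed without mutant library 1 (-0.50, adjusted p = 0.0496) and without mutant library 5 (-0.74, adjusted p = 0.0447). It did not pass without any other library (adjusted p of up to 0.163) or under the other settings, and over all 22 alternatives the estimate ran from -0.74 to -0.47. Wnt2, a ligand of mesenchyme in many organs that is named here after its values were seen, was at 140, 30.7, 51.4 and 70.5 in the controls and at 61.5, 76.0, 589, 429 and 414 in the mutants. Mutant libraries 3, 4 and 5 stood far above the rest while libraries 1 and 2 lay within the controls, and the log2 fold change of 1.78 had an adjusted p of 0.213. The ligands Wnt4, Wnt7b and Wnt10a overlapped between the groups, with log2 fold changes of -0.23 (SE 0.15), -0.15 (SE 0.13) and -0.71 (SE 0.37) and adjusted p of 0.417, 0.563 and 0.315. Wnt3a, a canonical ligand, was too low to be tested, at 8.28 to 28.6 in controls and 0 to 8.08 in mutants, and is named because its groups do not overlap.

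The other frizzled receptors went in both directions. Fzd8 was at 898, 1052, 1140 and 1109 normalized counts in the controls and at 650, 795, 867, 869 and 875 in the mutants. All mutants were below all controls, and the log2 fold change was -0.37 (SE 0.13, adjusted p = 0.134 by limma). Its estimate ran from -0.49 to -0.16 over the 22 alternatives. The lowest control, at 898, was library 1, the control low in Y-linked genes. Fzd4, also the receptor of Norrin and named after its values were seen, was at 479, 542, 528 and 595 in the controls and at 870, 522, 910, 795 and 917 in the mutants. All mutants but library 2 exceeded every control, with a log2 fold change of 0.56 (SE 0.18, adjusted p = 0.116), and Fzd4 was called when that library was left out. Of the 9 frizzleds tested, 3 had a positive and 6 a negative log2 fold change. Fzd6 and Fzd10 gave -0.16 (SE 0.11, adjusted p = 0.445) and -0.17 (SE 0.27, adjusted p = 0.766). Across all families 4 of the 35 tested members did not overlap between the groups, 1 higher and 3 lower, against 9.18% of all genes tested, 4.67% higher and 4.51% lower.

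**Figure D1:**
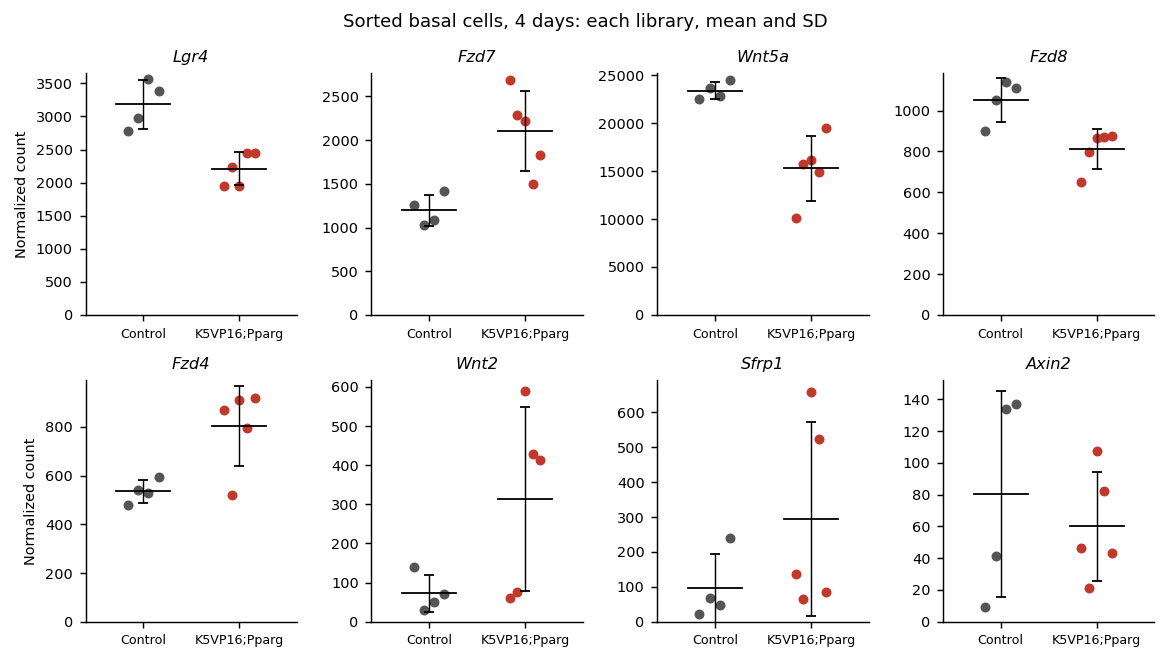
Normalized counts of 8 members in each sorted library (points), with the mean (long bar) and SD (capped bar) of the 4 control and 5 K5VP16;Pparg libraries. Lgr4, Wnt5a and Fzd8 are lower and Fzd7 is higher in all mutants, while Fzd4, Wnt2, Sfrp1 and Axin2 overlap.

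The readouts of canonical signalling gave no call at 4 days. Axin2 was at 9.16, 41.2, 134 and 137 normalized counts in the controls and at 46.2, 21.4, 107, 82.1 and 43.2 in the mutants. The control range enclosed all mutants, and the log2 fold change was -0.0020 with an SE of 0.78, the widest error of the readouts named here (adjusted p = 0.999). Over the 22 alternatives the estimate for Axin2 ran from -2.26 to 2.46. Lef1, Tcf7, Tcf7l1 and Tcf7l2 gave -0.15 (SE 0.35), 0.33 (SE 0.39), -0.0037 (SE 0.22) and 0.14 (SE 0.12), with adjusted p of 0.842, 0.666, 0.994 and 0.534. Lgr5, a stem cell marker in gut and skin, was at 49.7 to 78.1 in controls and 28.3 to 79.9 in mutants (adjusted p = 0.586).

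The antagonists and the R-spondin varied widely from library to library. Sfrp1 was at 21.9, 68.9, 49.4 and 241 normalized counts in the controls and at 136, 63.9, 659, 523 and 83.9 in the mutants, with a log2 fold change of 1.53 (SE 0.85, adjusted p = 0.340). Rspo1, the R-spondin that was tested, was at 180, 725, 1004 and 2849 in the controls and at 1366, 573, 3720, 3357 and 691 in the mutants, with 0.90 (SE 0.81, adjusted p = 0.563). For both, the highest libraries were mutant libraries 3 and 4 and control library 4, which were also the 3 libraries with the highest fibroblast marker sums, of 217938, 129231 and 84731. Mutant library 1 had nearly the same sum as control library 4, 84596, but lower values, at 136 for Sfrp1 and 1366 for Rspo1. Sfrp2 and Lgr6 were, among controls, highest in library 4, and their log2 fold changes were 1.08 (SE 0.79, adjusted p = 0.475) and 0.68 (SE 0.72, adjusted p = 0.632). With the fibroblast level as a covariate the estimates turned to -1.12 for Sfrp1, -1.60 for Rspo1, -1.13 for Sfrp2 and -1.83 for Lgr6, none of them called. The highest estimates over the 22 alternatives were 3.09, 3.07, 2.26 and 1.08 in the same order. Dkk3 was at 1279 to 2975 in controls and 651 to 3086 in mutants, with -0.42 (SE 0.43, adjusted p = 0.619), and reached -2.14 (adjusted p = 0.0144) with that covariate. Dkk2 was near the lower limit of testing, at 3.48 to 20.3 in all sorted libraries, with an adjusted p of 0.701.

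Of the 64 other pathway genes listed, 57 were tested and 1 was called, a share no higher than the 2.85% of all genes. Cd44, a hyaluronan receptor often used as a Wnt target, rose from 5100 ± 528 normalized counts (SD, n = 4) to 8655 ± 1124 (SD, n = 5), a log2 fold change of 0.76 (SE 0.11, adjusted p = 0.0116 by limma), without overlap. With the Y-linked level or the fibroblast level as a covariate the estimate was 0.59 and 0.81 but was not called (adjusted p = 0.354 and 0.202), nor was it without the 3 libraries highest in fibroblast markers (0.75, adjusted p = 0.106). The 6 libraries low in Y-linked genes, with 1 control against 5 mutants, gave 0.61. The median over the list was -0.13, with 22 genes positive and 35 negative. Of the 11 common targets listed 10 were tested, of which 4 were positive and 6 negative. Both genes that turn frizzleds over at the membrane, Znrf3 and Rnf43, had negative estimates and neither was called.

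The second comparison asks how the Wnt genes differ between luminal tumors with active Pparg and basal tumors of controls, which arose after the same carcinogen. Luminal tumors held far less of the secreted antagonist Sfrp1, and no other member was called. Several other antagonists, ligands and TCF/LEF factors lay lower in all 3 luminal tumors without a call, and Wnt7b lay higher in all 3. In these bulk libraries, fewer cells of a type and less RNA per cell cannot be told apart. The fit used 8 libraries, with 2 luminal domains of the same table as a further group that shares the estimate of the spread. Of 33 members tested 1 was called, against 2.20% of 15357 genes (1.26% higher and 0.938% lower), and 10 passed at an unadjusted p under 0.05, against 18.4% of all genes. The median log2 fold change was -2.14 over the tested members and -0.11 over all genes tested, with 9 members positive and 24 negative.

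Sfrp1, which binds Wnt ligands outside the cell, was at 767, 1888 and 1456 normalized counts in the basal tumors and at 1.16, 55.2 and 5.18 in the luminal tumors. The 2 luminal domains of this table, at 4.36 and 81.7, were also far below the basal tumors. The log2 fold change was -7.14 (SE 1.54, adjusted p = 0.0494 by limma). The exact permutation p was 0.1, the smallest that 3 against 3 libraries can give, as for every member without overlap here. The call was lost on leaving out any of the 8 libraries, with adjusted p of 0.0589 to 0.142, while the log2 fold change stayed between -8.46 and -6.11. It was also lost in 7 of the 10 other alternatives, with adjusted p of 0.0502 to 0.0828, namely a pseudocount of 0.5, no filter, a filter of 50, no trend, robust eBayes, quantile normalization and a fit of only the 6 libraries compared. Sfrp2, a close relative, was at 96.6, 176 and 564 in the basal tumors and at 0, 2.33 and 24.1 in the luminal tumors, with -5.61 (SE 1.89, adjusted p = 0.162). Its groups did not overlap either.

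Of the Dickkopf genes, Dkk2 and Dkk3 lay lower in the luminal tumors without a call, while Dkk1 and Dkk4 were too low to be tested. Dkk2 was at 1574, 2306 and 771 normalized counts in the basal tumors and at 64.9, 5.87 and 305 in the luminal tumors, with a log2 fold change of -4.77 (SE 1.39, adjusted p = 0.118). Dkk3 was at 646, 2006 and 2133 in the basal tumors and at 26.6, 488 and 198 in the luminal tumors, with -3.34 (SE 1.03, adjusted p = 0.134). Neither gene overlapped between the groups. Luminal tumor library 3 was the highest of its group for Dkk2, and without it Dkk2 was called (-6.05, adjusted p = 0.0402). Across the fits that left out 1 library, Dkk2 ran from -6.05 to -3.31, with adjusted p of up to 0.275.

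Ligands split in this comparison. Wnt2 was at 303, 702 and 302 normalized counts in the basal tumors and at 1.16, 2.35 and 2.10 in the luminal tumors, near the floor in every one of them. Its log2 fold change was -7.16 (SE 1.78, adjusted p = 0.0767), and with values this low its size rests on the pseudocount, at -7.44 with 0.5 and -5.89 with 5. It was called in 4 of 18 alternatives, with a pseudocount of 5 (adjusted p = 0.0464), with the 6 libraries compared fitted alone (0.0450) and without luminal domain library 1 (0.0492) or 2 (0.0471), and the adjusted p reached 0.208 on leaving out luminal tumor library 2. Wnt7b, an epithelial ligand, went the other way, at 606, 656 and 1227 in the basal tumors and at 1832, 2474 and 1949 in the luminal tumors, with 1.39 (SE 0.39, adjusted p = 0.110). It was called in 1 of 18 alternatives, with all 5 luminal libraries taken as 1 group (1.57, adjusted p = 0.0404), and the adjusted p in the others reached 0.311. Wnt10a was at 2279, 6203 and 2220 in the basal tumors and at 342, 99.4 and 4335 in the luminal tumors, where library 3 stood within the basal range, with -2.57 (SE 1.14, adjusted p = 0.269). Without that library it was called (-4.09, adjusted p = 0.0202). Leaving out 1 library at a time, Wnt10a ran from -4.09 to -1.37, with adjusted p of up to 0.589. Wnt4 and Wnt5a overlapped widely, with 0.13 (SE 0.54) and 0.62 (SE 1.08). Wnt5a was uneven among the basal tumors themselves, at 358, 261 and 7020.

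The TCF/LEF factors, which hold beta-catenin on DNA, all had negative estimates. Tcf7 was at 147, 603 and 633 normalized counts in the basal tumors and at 0, 0 and 81.7 in the luminal tumors, with a log2 fold change of -6.46 (SE 1.82, adjusted p = 0.110). With values listed at 0, this size rests on the pseudocount and ran from -7.13 to -4.87 over the alternatives other than leaving out 1 library, and without luminal tumor library 3 it was -8.59 (adjusted p = 0.0182). On leaving out 1 library Tcf7 ran from -8.59 to -5.40, with adjusted p of up to 0.299. Tcf7l1, often a repressor, was at 105, 86.0 and 403 in the basal tumors and at 3.33, 18.0 and 1.99 in the luminal tumors, with -4.63 (SE 1.29, adjusted p = 0.105). Lef1 was at 122, 239 and 103 in the basal tumors and at 66.4, 16.5 and 35.1 in the luminal tumors, with -2.05 (SE 1.13, adjusted p = 0.374). These 3 factors did not overlap between the groups, while Tcf7l2 did and gave -0.15 (SE 0.55). In all, 11 of the 33 members did not overlap, 1 higher and 10 lower, against 21.5% of all genes tested, 9.98% higher and 11.6% lower.

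No receptor or readout was called. Axin2 was at 148, 54.7 and 19.6 normalized counts in the basal tumors and at 72.2, 3.90 and 60.8 in the luminal tumors, with a log2 fold change of -0.98 (SE 1.48, adjusted p = 0.770). Lgr4 was at 994, 773 and 872 in the basal tumors and at 3025, 357 and 533 in the luminal tumors, on both sides of the basal range, with -0.072 (SE 0.74). Lgr5 was at 5.46 to 25.5 in the basal tumors and 23.2 to 155 in the luminal tumors, with 2.37 (SE 1.28, adjusted p = 0.364). Of the 9 frizzleds tested 4 were positive and 5 negative, none called, and Fzd6 and Fzd10 gave 0.31 (SE 0.59) and 2.44 (SE 1.84).

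**Figure D2:**
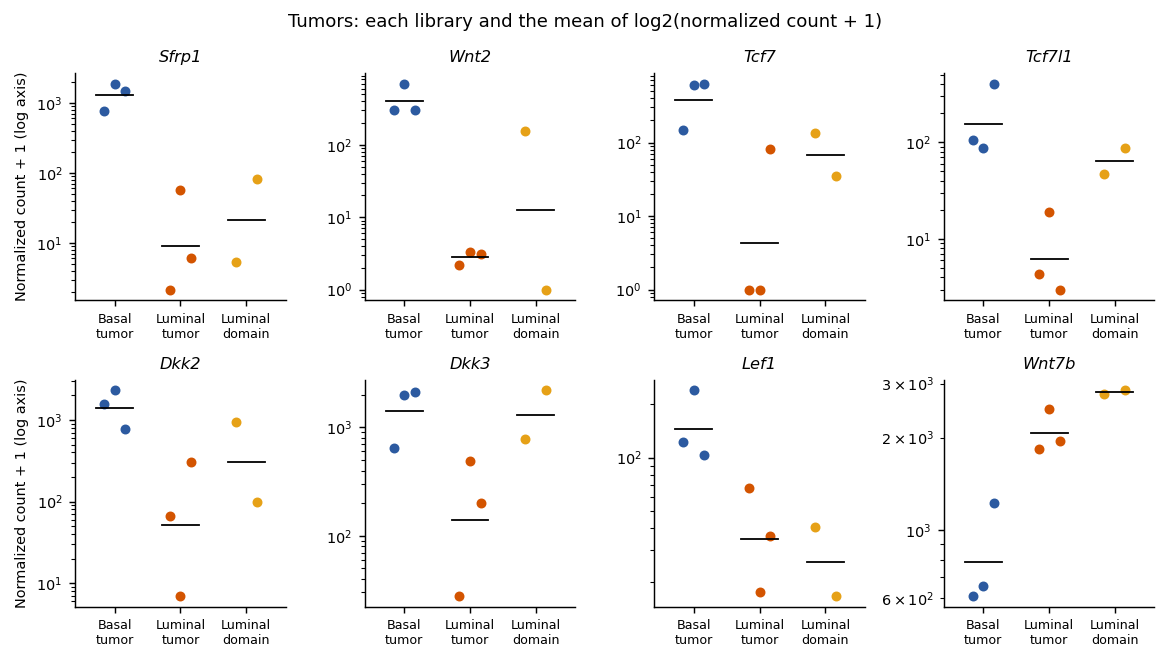
Normalized counts plus 1, on a log axis, of Sfrp1, Wnt2, Tcf7, Tcf7l1, Dkk2, Dkk3, Lef1 and Wnt7b in each of the 8 libraries of 1 table (points), with the mean of the log2 values of the 3 basal tumors, 3 luminal tumors and 2 luminal domains (bars). The first 7 genes are lower and Wnt7b is higher in every luminal tumor than in every basal tumor, while at least 1 luminal domain reaches the range of the basal tumors for Tcf7l1, Dkk2 and Dkk3.

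Markers of other cell types moved with these differences. The 8 fibroblast markers summed to 74175, 47050 and 71643 normalized counts in the basal tumors and to 820, 225 and 17671 in the luminal tumors, and all 8 had negative log2 fold changes, 4 of them called. The 6 smooth muscle markers summed to 6010 to 51208 in the basal tumors and 150 to 1254 in the luminal tumors, and the 8 leukocyte markers to 25778 to 134150 and 749 to 9786. The 5 endothelial markers summed to 1309 to 3257 and 374 to 1091, with all 5 negative and none called. Of the 6 basal cell markers 5 were negative and 2 were called, with sums of 298318 to 755856 and 44535 to 478076. The fibroblast markers Lum and Pdgfrb and the smooth muscle markers Myh11, Actg2, Cnn1 and Des were at 0 in at least 1 library. Of the 3 luminal tumors, library 3 had the highest fibroblast sum and also the highest Dkk2, Sfrp2 and Tcf7, while Sfrp1 was highest in library 2, which had the lowest sum, and Wnt2 was near the floor in all 3. Luminal domain library 1, with a sum of 30079, had Wnt2 at 157 and Sfrp1 at 4.36, and luminal domain library 2, with a sum of 5838, had Wnt2 at 0 and Sfrp1 at 81.7. The part of these markers in the tumor differences was not tested.

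**Figure D3:**
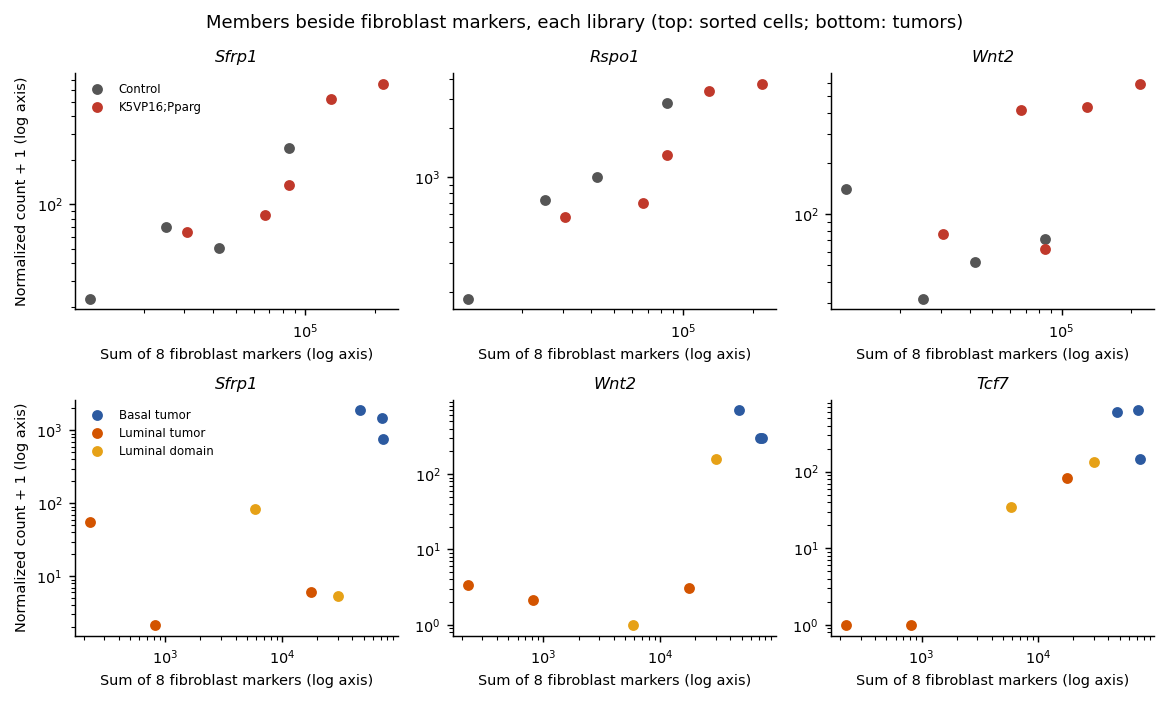
Normalized counts plus 1 of 3 members against the sum of 8 fibroblast markers in each library, both on log axes, for the 9 sorted libraries (top) and the 8 libraries of the tumor table (bottom). Sfrp1 and Rspo1 are highest in the sorted libraries with the highest sums, while in the tumor table Wnt2 is at 1.16 to 2.35 in luminal tumors with sums of 225 to 17671, at 157 in the luminal domain with a sum of 30079 and at 0 in that with a sum of 5838.

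Of the 64 other pathway genes, 54 were tested in the tumors and 2 were called, against the 2.20% of all genes given above. Frzb, another secreted frizzled-related antagonist, fell from 447 to 631 normalized counts in the basal tumors to 0 to 1.11 in the luminal tumors, a log2 fold change of -8.70 (SE 1.20, adjusted p = 0.0192 by limma) whose size rests on the pseudocount. It lost the call without basal tumor library 1 (adjusted p = 0.0863), without luminal tumor library 1 (0.0879) or library 2 (0.0814), and with the luminal domains in 1 group with the luminal tumors (0.127). Bambi, a decoy receptor for BMP signals that is also listed among Wnt targets, rose from 343 ± 359 (SD, n = 3) to 4080 ± 2851 (SD, n = 3), with 3.95 (SE 0.85, adjusted p = 0.0494), and was called in 1 of the 8 fits that left out a library, the one without basal tumor library 3, with adjusted p of up to 0.164 in the others. It was also lost in 5 of the 10 other alternatives (adjusted p of 0.0530 to 0.128), namely a pseudocount of 0.5, no filter, no trend, quantile normalization and only the 6 libraries compared. All 8 planar cell polarity genes tested had negative estimates, with a median of -2.55 and no call. The 3 Dishevelled genes, which pass the signal on from the receptor, had positive ones, with a median of 0.69.

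The third comparison sets the luminal domains of mixed lesions against the same basal tumors, in a table of these 6 libraries. It shares its basal tumors with the second comparison and is no independent test of it. No member was called, and the lowest adjusted p was that of Sfrp1. Of 32 members tested 0 were called by limma, against 2.53% of 14921 genes (1.70% higher and 0.824% lower), and 10 passed at an unadjusted p under 0.05, against 20.6% of all genes. The median log2 fold change was -0.18 over the members and 0.0097 over all genes tested, with 16 positive and 16 negative.

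Sfrp1 was at 809, 1953 and 1519 normalized counts in the basal tumors and at 4.67, 88.6 and 91.8 in the luminal domains, with a log2 fold change of -5.21 (SE 1.183, adjusted p = 0.0674). The groups were separated widely, and over the alternatives tried the estimate ran from -5.93 to -3.88. Wnt9a was at 163, 227 and 769 in the basal tumors and at 15.2, 38.3 and 12.8 in the luminal domains, with -3.89 (SE 1.06, adjusted p = 0.0990). Wnt2 was at 320, 727 and 315 in the basal tumors and at 168, 0 and 19.4 in the domains, with -4.80 (SE 1.78, adjusted p = 0.186). Both ligands lay lower in every domain than in any basal tumor. Wnt7b was higher in every domain, at 636, 674 and 1272 in the basal tumors and at 2945, 3075 and 1508 in the domains, with 1.55 (SE 0.45, adjusted p = 0.114). Wnt4 was at 12504, 6086 and 15045 in the basal tumors and at 16602, 20262 and 17199 in the domains, with 0.78 (SE 0.36, adjusted p = 0.272), also without overlap. Wnt5a was at 369, 263 and 7144 in the basal tumors and at 5152, 6143 and 4240 in the domains, with 2.53 (SE 1.11, adjusted p = 0.247), and without basal tumor library 3 it was called (4.03, adjusted p = 0.0178). Its estimate ran from 1.66 to 4.03 on leaving out 1 library, with adjusted p of up to 0.501.

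Lef1 was at 131, 252 and 110 normalized counts in the basal tumors and at 43.4, 17.2 and 9.29 in the domains, with a log2 fold change of -2.93 (SE 1.07, adjusted p = 0.179). Tcf7 was at 156, 625 and 662 in the basal tumors and at 144, 36.9 and 88.3 in the domains, with -2.35 (SE 0.95, adjusted p = 0.215). Fzd2 was at 635, 320 and 603 in the basal tumors and at 165, 31.5 and 166 in the domains, with -2.37 (SE 0.89, adjusted p = 0.191). These 3 genes did not overlap between the groups, which held for 9 of the 32 members tested, 2 higher and 7 lower. Of all genes tested 26.8% did not overlap, 14.0% higher and 12.8% lower. Wnt16, which was not tested here, lay lower without overlap, at 2202, 4.27 and 1076 in the basal tumors and 0, 2.29 and 0 in the domains. Rspo1, also not tested, was at 0 to 0.95 in the basal tumors and 1.06 to 5.77 in the domains. Axin2, Lgr4, Lgr5, Tcf7l1, Tcf7l2, Dkk2, Dkk3, Sfrp2, Fzd6, Fzd10 and Wnt10a overlapped, with adjusted p from 0.174 for Dkk2 to 0.992 for Lgr4. Dkk3, at 836 to 2384 in the domains and 681 to 2224 in the basal tumors, gave 0.088 (SE 0.59).

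The fibroblast sums in this table were 78002, 48554 and 74449 normalized counts in the basal tumors and 32164, 6321 and 5688 in the luminal domains, and the defining markers Col1a1 and Dcn were present in all 6 libraries. Smooth muscle markers summed to 6298 to 57231 in the basal tumors and 1430 to 1911 in the luminal domains, with all 6 negative and 3 called, and leukocyte markers to 26893 to 141196 and 8472 to 16357, with none called. Domain library 1, with the highest sum of its group, had the highest Wnt2, Tcf7 and Dkk2 of the domains and the lowest Sfrp1. Of the 6 basal cell markers 5 were negative and 1 was called, with sums of 321927 to 804173 in the basal tumors and 325698 to 603112 in the domains. All 6 superficial cell markers were positive and 2 were called, with sums of 781 to 9044 and 57376 to 320872. The part of the markers in these differences was not tested. Among the wider list 53 genes were tested and 1 was called, a share no higher than the 2.53% of all genes. Sox9, a transcription factor listed among Wnt targets, fell from 2538 ± 1089 (SD, n = 3) to 425 ± 140 (SD, n = 3), a log2 fold change of -2.53 (SE 0.50, adjusted p = 0.0468 by limma), and it was not called in any of the 6 fits that left out a library, with adjusted p of 0.0818 to 0.147, nor with no filter (0.0740), without the trend (0.110) or with the 2 domain libraries of the table of 8 (0.141). In the second comparison Sox9 gave -2.25 (SE 0.60, adjusted p = 0.0929) and in the third Bambi gave 3.12 (SE 0.84, adjusted p = 0.0990).

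The fourth comparison asks what changes between the luminal top and the basal-like bottom of mixed lesions. No gene of the table was called by limma, 0 of 14874, while 757 or 5.09% had an unadjusted p under 0.05 and 20 were called when the trend was left out of eBayes. Of 31 members tested 0 were called and 3 passed at an unadjusted p under 0.05, namely Sfrp2, Tcf7 and Axin1. All 31 had an adjusted p of at least 0.935. The median log2 fold change was 0.29 over the members and 0.0093 over all genes tested, with 20 positive and 11 negative.

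The 4 members tested that are grouped here as antagonists had positive estimates in the basal-like domains, none of them called. Of the 6 other extracellular inhibitors tested 3 were positive and 3 negative. Sfrp1 was at 4.74, 91.1 and 94.2 normalized counts in the luminal domains and at 449, 182 and 229 in the basal-like domains, with a log2 fold change of 2.85 (SE 1.24). Sfrp2 was at 142, 0.96 and 6.40 in the luminal domains and at 1137, 584 and 65.1 in the basal-like domains, with 4.79 (SE 1.77). All 3 basal-like domains exceeded all luminal domains for Sfrp1, but not for Sfrp2. Dkk2 was at 1030, 108 and 185 in the luminal domains and at 3426, 358 and 492 in the basal-like domains, with 1.62 (SE 1.08). Dkk3 was at 847, 2448 and 1943 in the luminal domains and at 1402, 4309 and 4194 in the basal-like domains, with 0.88 (SE 0.55). Both overlapped between the groups. Leaving out 1 library moved Sfrp1 between 1.51 and 3.54 and Sfrp2 between 3.44 and 6.53. The same fits gave 0.61 to 2.57 for Dkk2 and 0.43 to 1.42 for Dkk3.

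Both of the TCF/LEF factors that were lower in luminal domains than in basal tumors without overlap were higher in every basal-like domain. Tcf7 was at 142, 36.7 and 87.9 normalized counts in the luminal domains and at 196, 518 and 387 in the basal-like domains, with a log2 fold change of 2.12 (SE 0.81, adjusted p = 0.935). Lef1 was at 41.7, 16.8 and 9.05 in the luminal domains and at 127, 146 and 46.6 in the basal-like domains, with 2.29 (SE 1.06, adjusted p = 0.935). Since the luminal domains enter both comparisons, one set of low domain values would give both patterns. Tcf7l1 and Tcf7l2 gave 0.053 (SE 0.87) and -0.13 (SE 0.37).

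No ligand was called between the domains. Wnt4 was at 16847, 20827 and 17662 normalized counts in the luminal domains and at 12752, 15408 and 14941 in the basal-like domains, lower in every one, with a log2 fold change of -0.36 (SE 0.20). Wnt7b was at 2992, 3164 and 1550 in the luminal domains and at 1863, 1767 and 2069 in the basal-like domains, with -0.37 (SE 0.33), and Wnt5a gave -0.71 (SE 0.44). Fzd5 was at 456.4, 471 and 580 in the luminal domains and at 369, 278 and 320 in the basal-like domains, with -0.64 (SE 0.46). Axin2 was at 92.2, 28.4 and 96.6 in the luminal domains and at 227, 78.6 and 58.5 in the basal-like domains, with 0.67 (SE 0.97). Of the members tested, 6 did not overlap between the domains, 4 higher (Fzd10, Lef1, Sfrp1 and Tcf7) and 2 lower (Fzd5 and Wnt4). Of all genes tested 10.8% did not overlap, 5.62% higher and 5.14% lower. Rspo1, which was not tested, also lay lower without overlap, at 5.86, 2.96 and 1.09 in the luminal domains and 0 in each basal-like domain. The fibroblast sums were 33192, 6589 and 5913 in the luminal and 105217, 17557 and 15039 in the basal-like domains, with 7 of 8 markers positive. Smooth muscle markers summed to 1440 to 1921 and to 1929 to 7195, with all 4 tested positive, leukocyte markers to 8609 to 16761 and to 5031 to 20712, and superficial cell markers to 58607 to 322467 and to 29473 to 80155, with all 6 negative. Basal cell markers summed to 336999 to 620627 in the luminal and 366377 to 935556 in the basal-like domains, with all 6 positive. None of these markers was called, and their part in these values was not tested. None of the 54 wider pathway genes tested was called.

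The column headers of this table carry library numbers that follow each other for a luminal and a basal-like domain in 3 cases, which are the libraries numbered alike here. The labels do not state that these are the top and bottom of one lesion, so the pairing was tried as an alternative after the data were seen. With such pairs as a block in limma 0 members were called, with adjusted p of at least 0.197, against 1 of all genes (0.00672%), and 9 of 31 members had an unadjusted p under 0.05, against 12.5% of all genes. In 15 of the 31 members all 3 pairs went in 1 direction, against 35.3% of all genes. Dkk2 was higher in the basal-like domain of each pair, by 1.73, 1.72 and 1.40 on the log2 scale, and the SE of its mean difference became 0.40 (adjusted p = 0.208). Dkk3 was higher by 0.73, 0.82 and 1.11, with an SE of 0.20 (adjusted p = 0.197). Sfrp2 was higher by 2.99, 8.22 and 3.16 (SE 1.26, adjusted p = 0.226) and Wnt2 by 1.58, 5.87 and 2.66 (SE 1.14, adjusted p = 0.320). Wnt4 differed by -0.40, -0.43 and -0.24 (SE 0.13, adjusted p = 0.339) and Axin1 by -0.81, -0.84 and -1.51 (SE 0.28, adjusted p = 0.236). These members were named here after their values were seen.

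**Figure D4:**
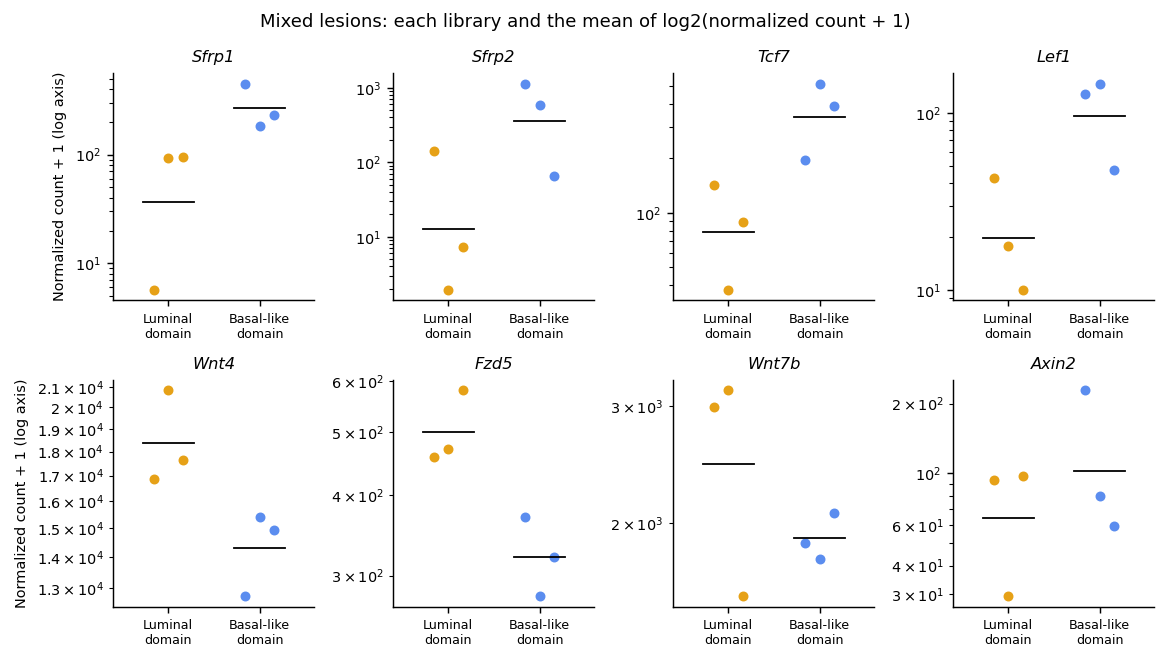
Normalized counts plus 1, on a log axis, of 8 members in the 3 luminal and 3 basal-like domains of mixed lesions (points), with the mean of the log2 values (bars). Sfrp1, Tcf7 and Lef1 are higher and Wnt4 and Fzd5 lower in every basal-like domain, while Sfrp2, Wnt7b and Axin2 overlap.

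Members that could not be tested were low or uneven. In the sorted cells 15 members did not reach the limit, and Rspo4, Wnt1, Wnt8b and Wnt9b were listed at 0 in every library. In the table of basal and luminal tumors 17 did not, with Dkk4, Fzd9, Rspo4, Wnt1, Wnt8b and Wnt9b listed at 0 throughout. Between the domains 19 did not. Some low members were high in single libraries, such as Lgr6, at 545 normalized counts in basal tumor library 3 and at 0 to 10.5 in the other 7 libraries of that table. Wnt16, named after its values were seen, was at 2050 and 1013 in basal tumor libraries 1 and 3 but at 4.06 in library 2, and passed the limit there with a log2 fold change of -3.29 (SE 2.32, adjusted p = 0.490).

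Some ligand genes are neighbours in the genome, which the rule did not use. Wnt6 and Wnt10a lie 6696 bases apart on chromosome 1, Wnt3a and Wnt9a 16097 bases apart on chromosome 11, and Wnt10b and Wnt1 11650 bases apart on chromosome 15, in GRCm38.p6. The gene bodies of Wnt9b and Wnt3 overlap on chromosome 11, so reads there could be shared between them, and neither passed the limit.

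**Figure D5:**
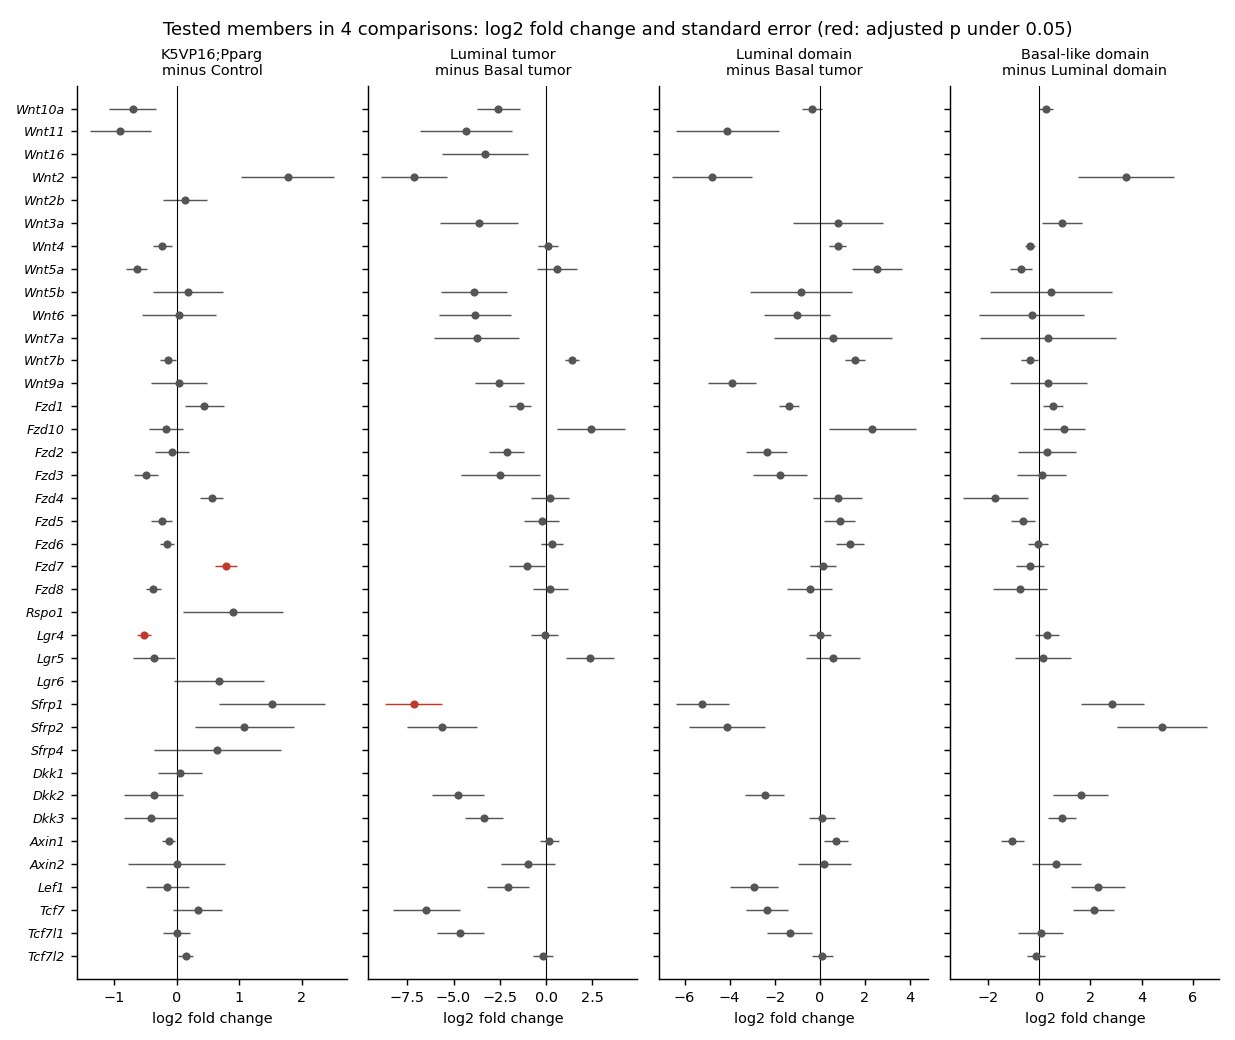
Log2 fold change with its standard error (points and lines) for every member tested in each of the 4 comparisons, with calls at an adjusted p under 0.05 in red. Lgr4 and Fzd7 are called in the sorted cells and Sfrp1 in luminal against basal tumors, and the horizontal scales differ between the panels.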

How the data were processed

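Bladder libraries were made by the authors with the SMART-Seq v4 and Nextera XT kits. Per the labels and the study's methods, transcripts were quantified with kallisto and summed to genes, and the submitters' processing notes name kallisto 0.44.0, bcl2fastq 2.20, DESeq2 1.18, sleuth and the builds GRCh38 and GRCm38. The 5 deposited tables used here hold a signal, read counts that the authors normalized with DESeq2 within each table, which cannot be turned back into whole reads. Tables were therefore fitted separately. The table of 1 month of BBN was not analysed here, because nothing pairs its columns with conditions. The authors' 6 lists of their own fold changes and p-values were not used.

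Columns were matched to groups by their headers and the labels, and 0 columns of the tables used matched no group. The filter kept genes that reached 10 normalized counts in n libraries, n being the size of the smaller group, and these were fitted with limma 3.58.1 (R 4.3.3; lmFit and eBayes with trend) on log2(normalized count + 1). The luminal and basal tumors were fitted with 2 luminal domains as a further group, and the other comparisons with their own groups only. P-values were adjusted by Benjamini-Hochberg over all genes tested, with a threshold of 0.05. Exact permutation tests over libraries were two-sided. Scripts were tested on simulated data. Genes were named if called, if among the 6 members with the largest change without overlap and a mean of at least 100, or if on a list of readouts and of ligands, antagonists and receptors studied in bladder, and called genes of the wider pathway list were named too. The members and lists were chosen with earlier results of these data known. Other pseudocounts, filters, scalings and variance models, fits without each library, and 5 settings chosen after seeing the data (2 for Y-linked genes, 2 for fibroblast markers, 1 for pairs of domains) were tried. In each of the 3 pairs of domains with adjacent library numbers, deviations from the group means correlated across genes at 0.330 to 0.363. Libraries of different pairs gave at most -0.114, but deviations cancel within a group, so positive values within pairs make negative ones between pairs. The labels do not state this pairing. Precision is limited by the number of libraries. Plots used matplotlib 3.10.9 under Python 3.11.15, and tables were read through pandas 2.3.3. Sequences and positions are RefSeq's, on GRCm38.p6.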

Additional observations from a re-analysis of the deposited data

Results flagged for a closer look

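Lgr6 in the sorted controls stood at 146 normalized counts in library 4 and at 42.8 to 57.7 in the other 3, a gap wider than expected of 1 library in a group of 4. Sfrp2 stood apart in the same library, at 241 normalized counts against 19.3 to 48.9 in the other 3. Control library 4 also had the highest fibroblast marker sum of the controls, 84731, and the part of those cells was not tested. In all, 42 sets of values were looked at and 2 stood apart in this way, while chance gives about 1 in 20.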

How the results depend on the processing

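Of 81 results with alternatives, 53 kept their sign in all that were tried and 28 changed sign in at least 1, and for none of the changes was the cause tested. No paired analysis was possible because the columns carry no replicate numbers, except between the domains, where libraries with adjacent header numbers were taken as pairs. In the sorted cells, 2 members were called, against 0 with no filter, without the trend in eBayes, in the table of 3 against 3 libraries, with the Y-linked level as a covariate, in the 6 libraries low in Y-linked genes and without the 3 libraries highest in fibroblast markers, 1 (Dkk3) with the fibroblast level as a covariate, and 0 to 2 on leaving out 1 library. Genes called over the whole table went from 467 to 269 without the trend, 147 in the table of 3 against 3, 25 with the Y-linked covariate, 14 in the 6 libraries low in Y-linked genes (1 control against 5 mutants, the lone control being assumed to vary like the mutants), 75 without the 3 libraries highest in fibroblast markers, 24 with the fibroblast covariate, and 129 (without control library 3) to 596 (without mutant library 2) on leaving out 1 library. Leaving out control library 2 or 4 or mutant library 1 or 3 gave 154, 169, 311 and 228. Quantile normalization moved the share of called genes that were higher from 62.1% to 48.5%.

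Signs changed in the sorted cells as follows, with log2 fold changes. Axin2 was at 0.0072 with a pseudocount of 0.5, 2.46 with the Y-linked covariate and 2.38 in the 6 libraries low in Y-linked genes. The same pair of settings gave 0.30 and 0.19 for Dkk3, 0.44 and 0.46 for Fzd10, and 0.054 and 0.094 for Lef1, and the Y-linked covariate gave 0.080 for Dkk2. The fibroblast covariate gave 0.093 for Fzd10, -1.83 for Lgr6, -1.12 for Sfrp1, -1.13 for Sfrp2, 0.24 for Tcf7l1, 0.16 for Wnt10a, 0.035 for Wnt7b, -1.60 for Rspo1 and -0.85 for Tcf7. The table of 3 against 3 gave -0.16 for Rspo1 and -0.071 for Tcf7, and leaving out the 3 libraries highest in fibroblast markers gave -0.055 for Tcf7. On leaving out 1 library, Axin2 ran from -0.80 to 0.46, Fzd10 from -0.38 to 0.11, Lef1 from -0.32 to 0.045 and Tcf7l1 from -0.14 to 0.16.

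Between luminal and basal tumors, 1 member was called, against 0 with a pseudocount of 0.5, no filter, a filter of 50 normalized counts, no trend, robust eBayes or quantile normalization, 2 with a pseudocount of 5 or with 5 luminal libraries as 1 group, and 0 to 3 on leaving out 1 library. Genes called went from 338 to 52 with no filter, 142 without the trend, 513 with 5 luminal libraries as 1 group, 142 with only the 6 libraries compared, and 3 (without luminal tumor library 1 or 2) to 813 (without luminal tumor library 3) on leaving out 1 library. Each other library left out also moved that count, to 14, 211 and 100 for basal tumor libraries 1, 2 and 3, and to 116 for luminal domain library 2 and nearly the same for library 1. Quantile normalization moved the median of all genes from -0.11 to 0.021 and turned Axin2 to 0.0025 and Wnt4 to -0.096. On leaving out 1 library, Axin2 ran from -1.70 to 0.28, Fzd6 from -0.35 to 0.90, Lgr4 from -1.00 to 0.54, Tcf7l2 from -0.52 to 0.30, Wnt4 from -0.35 to 0.72 and Wnt5a from -0.25 to 2.12.

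Between luminal domains and basal tumors, 0 members were called, and 0 to 1 on leaving out 1 library (Wnt16 without basal tumor library 2, Wnt5a without library 3). Genes called went from 377 to 144 with no filter, 107 without the trend, 53 with the 2 domain libraries of the table of 8, and 0 (without luminal domain library 1 or 2) to 467 on leaving out 1 library, with 22 and 160 without basal tumor library 1 and 3 and 3 without luminal domain library 3. Upper-quartile scaling moved the median of all genes from 0.0097 to -0.14 and the share of called genes that were higher from 67.4% to 57.2%, and gave -0.061 for Dkk3, -0.14 for Lgr4 and -0.051 for Tcf7l2. Quantile normalization gave -0.060, -0.068 and -0.013 for the same genes, and the 2 domain libraries of the table of 8 gave -0.098, -0.49 and -0.18, with -0.16 for Axin2. On leaving out 1 library, Axin2 ran from -0.53 to 0.90, Dkk3 from -0.46 to 0.54, Lgr4 from -0.44 to 0.25, Tcf7l2 from -0.27 to 0.38 and Wnt10a from -0.62 to 0.11. Between the domains, the 0 genes called became 20 without the trend and 1 with the pairs of adjacent library numbers as a replicate block, which left 0 members called. Quantile normalization gave 0.027 for Fzd6, -0.075 for Lgr5 and -0.19 for Tcf7l1, and upper-quartile scaling 0.0077 for Fzd6. On leaving out 1 library, Fzd6 ran from -0.40 to 0.28, Lgr5 from -0.32 to 0.59, Tcf7l1 from -0.12 to 0.34 and Tcf7l2 from -0.25 to 0.11.

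The number of libraries, 3 in each tumor group, and the unknown depth in reads that each library reached limit the precision.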
